A study of Mus musculus with 6 samples.

Results

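Genes whose products are used to sort hematopoietic stem cells (HSCs) and multipotent progenitors (MPPs) were examined in HSCs of control mice and of mice given ferulic acid long term. They were chosen by name, as the rows of the deposited table whose gene symbol was Kit, Ly6a, Cd34, Flt3, Slamf1, Cd48, Cd244a, Procr, Esam or Fgd5. All 10 were found among the 27198 listed genes. The mice were wild type male C57BL/6 animals of 8 to 10 weeks that had not been irradiated. The l-FA group received ferulic acid (FA) into the peritoneum at 50 mg/kg each day for 30 days, and the control (Ctrl) group received the solvent. Bone marrow cells negative for lineage antigens, CD34 and CD135 (also called Flk2, the product of Flt3) and positive for c-Kit and Sca-1 were sorted, and 3 libraries per group were sequenced. The number of mice behind each library was not stated, so p-values measure the spread between libraries, which may be technical.

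HSCs sit at the top of blood formation and self-renew, whereas MPPs have lost long-term self-renewal but still give rise to many lineages. In mouse marrow both lie in the fraction that lacks lineage antigens and carries c-Kit and Sca-1. Within it, HSCs are classically enriched among cells with little surface CD34 and CD135, or among cells with CD150 (the product of Slamf1) and without CD48. EPCR (Procr), ESAM and Fgd5 mark HSCs further, whereas CD135 and CD48 are gained as cells move to MPP subsets. These are properties of surface proteins or reporter alleles, and the values below are RNA of the same genes.

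Libraries held 19287735 to 20380610 counts, and 16520 genes passed edgeR's low-count filter. Libraries of one group lay close together, with a median chi-square between pairs of 0.890 to 1.09 over genes, against 8.20 to 8.83 between groups and 0.455 for counting error alone. Among 137 listed immunoglobulin variable genes, 12 had at least 10 counts in each Ctrl library and 0 in each l-FA library, and 16 showed the reverse. Of the antigens of the lineage cocktail and CD127, Cd3e had at most 10 counts and Ly6g at most 8 in any library, so neither was tested. Itgam, the CD11b subunit of myeloid cells, had 771 to 967 counts in Ctrl and 1209 to 1395 in l-FA and rose (log2 fold change 0.50, edgeR adjusted p = 0.00266). Ptprc, which encodes CD45 and includes the B-cell form B220, and Il7r, which encodes CD127, did not pass, with log2 fold changes of 0.18 and 0.09.

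Of the 10 sorting markers, all of which were tested, 9 were higher in l-FA than in Ctrl and 1, Cd48, was lower at an adjusted p under 0.05 (edgeR quasi-likelihood test, Benjamini-Hochberg adjustment over all genes tested). Over all genes tested, 25.5% were called higher and 25.0% lower, the shares beside which the list counts below are to be read. Total counts without scaling factors split those calls into 61.6% higher and 38.4% lower, against 50.4% and 49.6% with the TMM factors used here, and left the direction and call of each marker in place. A change of over 2-fold was reached by 1 marker, Slamf1, where 6.68% of genes were called higher and 5.10% lower with that limit. For all 10 markers no l-FA library overlapped a Ctrl library, and for all genes tested this held for 30.4% upward and 29.9% downward. The median log2 fold change of the markers was 0.52, against 0.00350 over all genes tested. In bulk RNA, fewer cells of a type and less RNA per cell cannot be told apart.

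**Figure D1:**
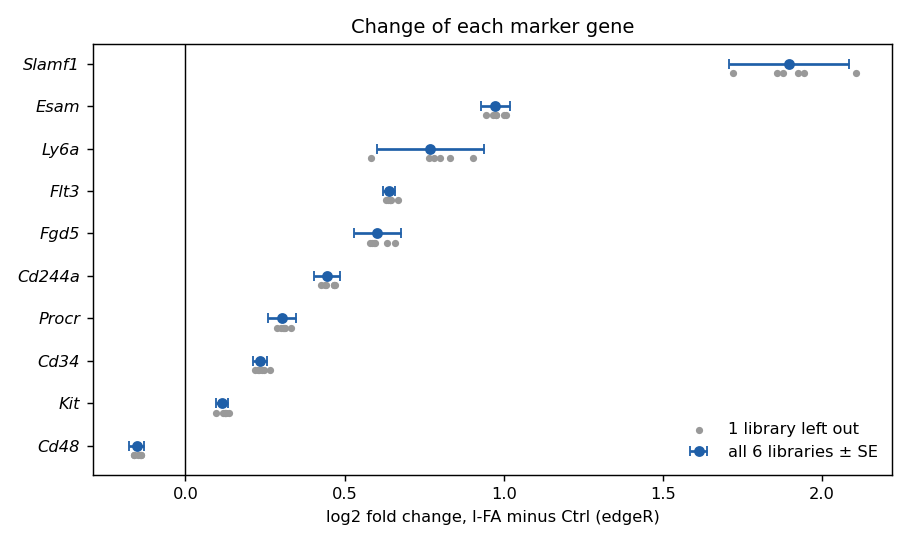
Log2 fold change of each sorting marker, l-FA minus Ctrl (x axis, edgeR), with 1 row per gene. Blue points with bars are the estimate and SE from all 6 libraries, and grey points leave out 1 library each; Cd48 lies below 0 and the other 9 genes above it, with Slamf1 at 1.90.

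The markers spanned a wide range in level per gene length, which was read from the FPKM values. In Ctrl the order was Cd34 at 133 ± 1.13 FPKM (SD, n = 3), Flt3 at 119 ± 0.144, Cd48 at 103 ± 1.20, Kit at 80.0 ± 0.988, Ly6a at 12.7 ± 3.10, Esam at 9.81 ± 0.415, Cd244a at 8.69 ± 0.263, Procr at 8.47 ± 0.222, Fgd5 at 1.33 ± 0.0460 and Slamf1 at 0.326 ± 0.0845. Neighbours in this order had separate ranges over the libraries, except Ly6a and Esam, and Cd244a and Procr. In l-FA, Flt3 stood first at 197 ± 2.57 FPKM and Cd34 second at 165 ± 3.47, the rest of the order was that of Ctrl, and all neighbours had separate ranges. The lengths behind FPKM ran from 1805 bases for Cd48 to 12958 bases for Kit. With the longest coding transcript in GENCODE M21 as the length instead (an alternative added after seeing the data), Cd34 stood first and Flt3 second in both groups, Kit moved ahead of Cd48, Procr moved ahead of Esam in Ctrl and ahead of Cd244a in both groups, and Slamf1 remained last.

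**Figure D2:**
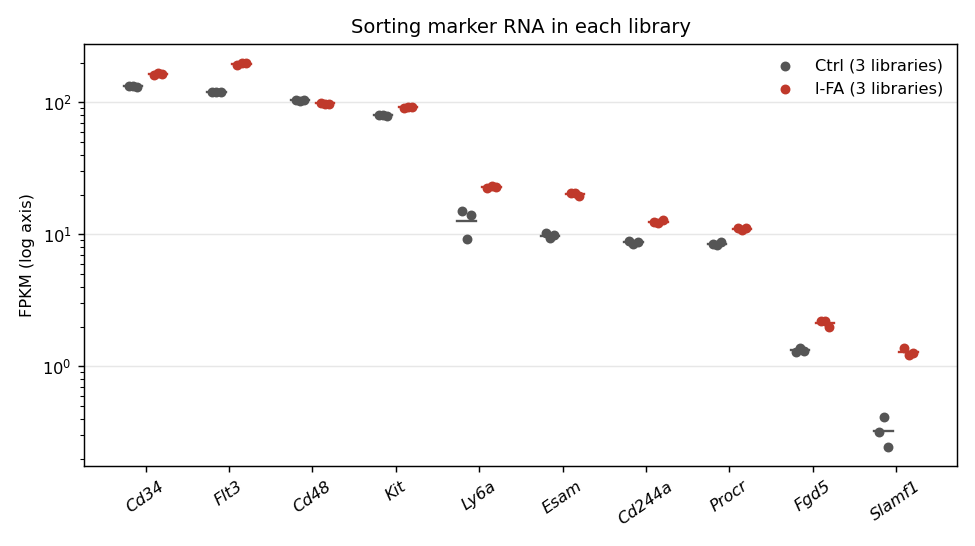
FPKM of the 10 markers (log y axis) in each of 3 Ctrl (grey) and 3 l-FA (red) libraries, with a line at each group mean. The genes are ordered by their Ctrl level: Cd34, Flt3, Cd48 and Kit lie near or above 80 FPKM, and Slamf1 lies lowest, at 0.326 FPKM in Ctrl and 1.28 in l-FA.

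The RNA of both antigens on which the cells were sorted as negative was abundant. Cd34 (ENSMUSG00000016494, chr1:194621127-194643587), which encodes a sialomucin of progenitors and endothelium, had 133, 134 and 132 FPKM in the Ctrl libraries and 161, 168 and 165 FPKM in the l-FA libraries. It ranked from 287 to 319 among the 27198 genes in Ctrl and from 211 to 225 in l-FA. Every l-FA library lay above every Ctrl library, and the log2 fold change was 0.23 (SE 0.022, edgeR adjusted p = 0.000286). Flt3 (ENSMUSG00000042817, chr5:147267551-147337299), the receptor tyrosine kinase CD135 that binds FLT3 ligand, had 14568, 14232 and 15060 counts in Ctrl, or 119 to 120 FPKM. In l-FA it had 24368, 23986 and 23834 counts, or 194, 198 and 198 FPKM. The groups were far apart and the 3 Ctrl libraries nearly coincided, with a coefficient of variation of 0.121% where counting error gives 0.827%. The log2 fold change of Flt3 was 0.64 (SE 0.018, edgeR adjusted p = 3.95e-06), a 1.56-fold difference, and its rank rose from between 341 and 371 in Ctrl to between 162 and 178 in l-FA. Both genes overlap a listed long non-coding RNA with far fewer counts, namely Gm16897 with 79 to 84 in Ctrl and 119 to 121 in l-FA for Cd34, and Gm26597 with 86 to 111 and 214 to 240 for Flt3. RNA of both genes was thus abundant in every library of both groups, although the cells were labelled CD34-negative and CD135-negative. No library of CD34-positive or CD135-positive cells was analysed beside them, and surface protein was not measured in these files, so the label was not tested.

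The antigens on which the cells were sorted as positive differed widely in RNA. Kit (ENSMUSG00000005672, chr5:75735576-75817382), the receptor of stem cell factor, had 80.4, 80.8 and 78.9 FPKM in Ctrl and 91.2, 91.5 and 92.1 FPKM in l-FA. The groups did not overlap, but the step was small, with a log2 fold change of 0.12 (SE 0.019, edgeR adjusted p = 0.00238), or 0.19 with total counts as the only scaling. Ly6a (ENSMUSG00000075602, chr15:74866726-74869880), which encodes the GPI-anchored antigen Sca-1, had 1021, 610 and 980 counts in Ctrl and 1576, 1575 and 1533 in l-FA. Ctrl 2 lay below the other 2 Ctrl libraries, whereas the l-FA libraries lay together. Its log2 fold change was 0.77 (SE 0.17, edgeR adjusted p = 0.00887), and 0.58 without Ctrl 2. Ly6a belongs to a family of similar neighbouring genes, and how reads shared between them were counted is not given in the sources used here. Of the 5 Ly6 genes tested, 1 rose (Ly6a) and 2 fell, with a median log2 fold change of -0.52. The low-count filter was run again without each library, so the Ly6 genes tested could differ. The median was -0.85 without Ctrl 1, -0.84 without l-FA 1 and -0.84 without l-FA 2. Without Ctrl 2, 3 fell, Ly6d (-0.69) being the third. Without Ctrl 1 or l-FA 2, 3 fell as well, but not all of them were among those 5. With all libraries, those that fell were the monocyte antigen gene Ly6c2, from 1437 to 3215 counts to 413 to 641 (log2 fold change -2.26), and Ly6c1 (-1.21). Ly6d, an antigen of B-cell-biased lymphoid progenitors, and Ly6e did not pass, with -0.52 and -0.07.

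The receptors Kit and Flt3 signal through shared adaptors, phosphatases and kinases. Of 27 tested genes for type III receptor tyrosine kinases, their ligands and their transducers, 8 rose and 7 fell. Over all genes tested, 25.5% rose and 25.0% fell. The median log2 fold change of the list was 0.06, and with total counts as the only scaling 12 rose and 4 fell. Beside Flt3, those that rose included the PDGF receptor gene Pdgfrb (0.41) and the transcription factor gene Stat5b (0.40). Those that fell included the catalytic subunit gene Pik3ca (-1.44), the Src-family kinase gene Fyn (-0.97) and the adaptor gene Grb2 (-0.88). The phosphatase genes Ptpn6 and Inpp5d did not pass, with log2 fold changes of 0.29 and 0.02. Kitl, which encodes the ligand of c-Kit and is made by niche cells, had 2 to 9 counts in any library and was not tested.

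The SLAM receptors, a family of immunoglobulin-type receptors that mostly bind themselves or each other on blood cells, held the largest rise and the only fall among the markers. Slamf1 (ENSMUSG00000015316, chr1:171594695-171628752) encodes CD150, which is retained on HSCs. It had 40, 51 and 32 counts in Ctrl and 179, 152 and 156 counts in l-FA, or 0.317, 0.415 and 0.246 against 1.38, 1.22 and 1.25 FPKM. All 3 l-FA libraries lay above all 3 Ctrl libraries, and the log2 fold change was 1.90 (SE 0.19, edgeR adjusted p = 0.000338), a 3.72-fold difference that ranged from 1.72 to 2.11 on the log2 scale with each library left out. By FPKM, Slamf1 lay at the 36.6th to 43.1st percentile of listed genes in Ctrl and at the 54.9th to 56.2nd in l-FA. Counting error alone gives a coefficient of variation of 15.6% for Slamf1 in Ctrl and of 7.85% in l-FA, the largest counting error among the markers.

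Cd48 (ENSMUSG00000015355, chr1:171509577-171532826), which encodes the ligand of CD244 and is gained on MPPs, was abundant. It had 104, 102 and 104 FPKM in Ctrl and 99.1, 97.8 and 97.9 FPKM in l-FA, and ranked from 432 to 453 in all 6 libraries. The l-FA libraries lay just below the Ctrl libraries, with a log2 fold change of -0.15 (SE 0.023, edgeR adjusted p = 0.00176). With total counts as the only scaling the value was -0.08 (adjusted p = 0.0332). Cd244a (ENSMUSG00000004709, chr1:171386761-171437314), which encodes the receptor of CD48 and is found on part of the MPPs, had 936, 860 and 940 counts in Ctrl and 1344, 1272 and 1321 in l-FA. It was higher in every l-FA library, with a log2 fold change of 0.45 (SE 0.041, edgeR adjusted p = 0.000248). The listed span of Cd244a encloses Ly9, a further SLAM receptor gene with 1014 to 1163 counts per library, and whether counting used strand is not given in the sources used here. Ly9 did not pass (log2 fold change -0.09, edgeR adjusted p = 0.148).

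These genes lie close together on chromosome 1. In the deposited coordinates, 72263 bases separate the end of Cd244a from the start of Cd48. Within them lies the SLAM receptor gene Slamf7, which did not pass (log2 fold change 0.84). A further 61869 bases separate the end of Cd48 from the start of Slamf1. Of 9 tested genes for SLAM receptors and their adaptors, Slamf1, Cd48 and Cd244a among them, 3 rose and 1 fell, with a median log2 fold change of 0.28. The third that rose was Cd84, next to Slamf1 on its other side, from 1146 to 1173 counts to 1767 to 1886 (log2 fold change 0.58), while Slamf6 had 0.28 and did not pass. Without Ctrl 1 the median was 0.43 and Slamf6 passed (edgeR adjusted p = 0.0425), and the median was 0.20 without Ctrl 2 or without Ctrl 3.

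**Figure D3:**
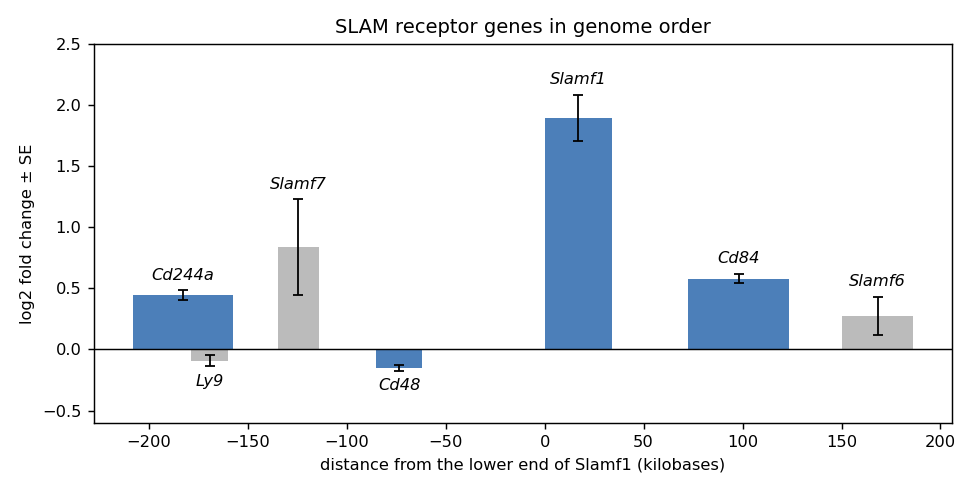
Map of 7 SLAM receptor genes by distance from the lower end of Slamf1 (x axis, kilobases), with each gene drawn over its listed span and its height and error bar giving log2 fold change and SE, l-FA minus Ctrl. Blue genes had an adjusted p under 0.05 and grey genes did not; Slamf1 stands at 1.90, its neighbour Cd48 at -0.15 and Cd244a at 0.45.

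The start regions of Slamf1, Cd48 and Cd244a are shown because their RNA differed in level and in change within one receptor cluster. Each sequence is the RefSeq window from 250 bases before to 50 bases after the gene's start on GRCm38.p6, a build other than that of the deposited table, on the plus strand. RefSeq windows were found for 8 of the 10 markers. Capitals mark matches, on either strand, to a short form of each of 4 motifs. The letters searched were GATAA for factors of the GATA family, TGTGGT for the RUNX family, AGGAAG for the ETS family and CAGCTG for an E-box. They occur in 25.3%, 16.7%, 35.1% and 16.4% of 32544 distinct windows, in that order. No match overlaps another in the 3 windows shown.
Slamf1 (chr1:171766882-171767181): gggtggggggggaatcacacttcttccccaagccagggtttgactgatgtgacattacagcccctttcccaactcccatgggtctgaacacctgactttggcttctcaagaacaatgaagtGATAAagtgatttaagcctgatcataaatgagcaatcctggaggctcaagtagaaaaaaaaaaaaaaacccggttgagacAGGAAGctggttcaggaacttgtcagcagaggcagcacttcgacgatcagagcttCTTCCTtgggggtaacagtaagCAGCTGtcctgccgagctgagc
Cd48 (chr1:171681742-171682041): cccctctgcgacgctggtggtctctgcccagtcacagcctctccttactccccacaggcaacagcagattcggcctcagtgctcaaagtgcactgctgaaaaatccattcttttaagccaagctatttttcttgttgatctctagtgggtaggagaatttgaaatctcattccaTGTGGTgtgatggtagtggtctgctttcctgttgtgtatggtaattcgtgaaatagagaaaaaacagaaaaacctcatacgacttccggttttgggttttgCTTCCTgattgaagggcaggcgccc
Cd244a (chr1:171558943-171559242): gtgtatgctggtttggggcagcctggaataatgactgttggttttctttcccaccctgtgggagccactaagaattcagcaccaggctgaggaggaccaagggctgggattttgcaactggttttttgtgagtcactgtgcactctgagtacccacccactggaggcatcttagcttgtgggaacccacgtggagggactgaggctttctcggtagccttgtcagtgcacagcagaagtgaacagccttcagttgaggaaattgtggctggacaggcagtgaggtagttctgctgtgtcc
The Slamf1 window held 1 GATA match, 2 ETS matches and 1 E-box match, the Cd48 window held 1 RUNX and 1 ETS match, and the Cd244a window held none of the 4. Of the other markers with a window, Cd34 had 1 GATA and 1 ETS match, Kit and Fgd5 had an ETS match, Procr had an E-box match and Flt3 had none. A match describes letters only, and factor binding was not measured here.

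The remaining markers, used to refine HSC gates, were all higher in l-FA. Procr (ENSMUSG00000027611, chr2:155593037-155597391), the endothelial protein C receptor, had 630, 601 and 669 counts in Ctrl and 861, 796 and 820 in l-FA. The groups did not overlap, and the log2 fold change was 0.30 (SE 0.044, edgeR adjusted p = 0.00158). Of 8 tested genes of the protein C receptor pathway, Procr among them, 3 rose and 2 fell, with a median log2 fold change of -0.23. The thrombin receptor genes F2r (0.25) and F2rl3 (0.19) rose, and Thbd, which encodes the thrombomodulin that cooperates with EPCR, fell (-0.31), a call lost in 7 of 13 alternatives. F3, which encodes tissue factor and was singled out after its values were seen, fell from 25, 23 and 24 counts in Ctrl to 3, 0 and 0 in l-FA (edgeR adjusted p = 0.00134). Tfpi and Adam17 did not pass, with -0.58 and -0.24.

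Esam (ENSMUSG00000001946, chr9:37439374-37449615), an adhesion molecule of endothelium, platelets and HSCs, had 689, 618 and 687 counts in Ctrl and 1447, 1376 and 1315 in l-FA. Every l-FA library lay above every Ctrl library, with a log2 fold change of 0.97 (SE 0.047, edgeR adjusted p = 2.49e-05), a 1.96-fold difference. Of 7 tested genes for junctional adhesion molecules and partners, Esam among them, 3 rose and 2 fell, with a median log2 fold change of 0.37. F11r, which encodes JAM-A, rose by 0.63 and Pecam1, which encodes CD31, by 0.37, whereas the scaffold gene Tjp1 (-1.06) and Jam3 (-0.54) fell. The call of Jam3 was lost in 7 of 13 alternatives. Jam2 and Cldn5 did not pass, with 0.30 and 0.67. Because Procr, Esam and Cd34 are also endothelial genes, the endothelial list was read beside them. Its summed level was 21.8 to 22.4 CPM in Ctrl and 25.6 to 27.6 CPM in l-FA. Much of that sum was Emcn, also a sialomucin gene, with a mean of 12.6 CPM in Ctrl and 14.6 in l-FA, which did not pass. Plvap, at 5.47 and 5.78 CPM, did not pass either. Of 4 tested genes 1 (Kdr, 0.78) rose. Without l-FA 3 the low-count filter was run again, and 3 genes of the list rose. Emcn (0.28) was among these, but not all of them were among the 4. The defining cadherin gene Cdh5 had 3 counts in each Ctrl library and 5 to 9 in l-FA. The part of endothelial RNA in these markers was not tested beyond those values.

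Fgd5 (ENSMUSG00000034037, chr6:91955859-92052985), an exchange factor for the small GTPase Cdc42 whose locus drives an HSC reporter, had 230, 240 and 242 counts in Ctrl and 405, 388 and 351 in l-FA. The groups were separate, with a log2 fold change of 0.60 (SE 0.073, edgeR adjusted p = 0.000726). Of 6 tested genes of its family with Cdc42, Fgd5 among them, 5 rose and none fell, with a median log2 fold change of 0.56. With total counts as the only scaling Cdc42 passed as well. Fgd1 (0.81), Fgd3 (0.61), Fgd4 (0.51) and Fgd2 (0.32) rose, and Cdc42 did not pass (-0.01). Among 7 sialomucin genes, to which Cd34 belongs, 2 rose and 1 fell, with a median of 0.01. For all genes tested these shares were 25.5% and 25.0%. Selplg (0.07) rose and Cd164 (-0.08) fell, calls that were lost in 7 and 6 of 13 alternatives, and Spn (0.01) and Emcn (0.21) did not pass.

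The markers were then set against each other within a library, which does not depend on scaling between libraries. The size of a ratio depends on the lengths behind FPKM, whereas its log2 difference between groups does not. With the longest coding transcript as the length, Flt3 and Kit had mean levels of 202 and 198 in Ctrl and 332 and 226 in l-FA. The FPKM ratio of Cd48 to Slamf1 was 329, 246 and 422 in Ctrl and 72.0, 80.3 and 78.1 in l-FA, a log2 difference of -2.07. Cd34 to Slamf1 differed by -1.68 and Cd244a to Slamf1 by -1.47. The ratio of Flt3 to Kit was 1.48 to 1.52 in Ctrl and 2.12 to 2.17 in l-FA, a log2 difference of 0.52, and that of Flt3 to Procr was 13.7 to 14.5 and 17.3 to 18.4, a difference of 0.34. For these 5 ratios the groups did not overlap, and all 10 markers were separate as single genes too. Single genes did not overlap for 30.4% upward and 29.9% downward of all tested. The share among ratios of gene pairs was not computed, so how common such a separation is for ratios cannot be read. The ratios to Slamf1 share that gene (log2 fold change 1.90), and those of Flt3 share Flt3 (0.64), so they are not separate results. Each gave an exact permutation p of 0.1 (two-sided, n = 3 and 3), the smallest that this design allows. After Benjamini-Hochberg adjustment over 6 ratios it was 0.12. For Cd34 to Procr the groups overlapped, at 15.1 to 16.2 in Ctrl and 14.4 to 15.6 in l-FA (log2 difference -0.07, exact permutation p = 0.2, adjusted 0.2). The ratios to Slamf1 were thus lower and the ratios of Flt3 to Kit and to Procr were higher in all 3 l-FA libraries than in all 3 Ctrl libraries, but none could reach an adjusted p under 0.05.

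**Figure D4:**
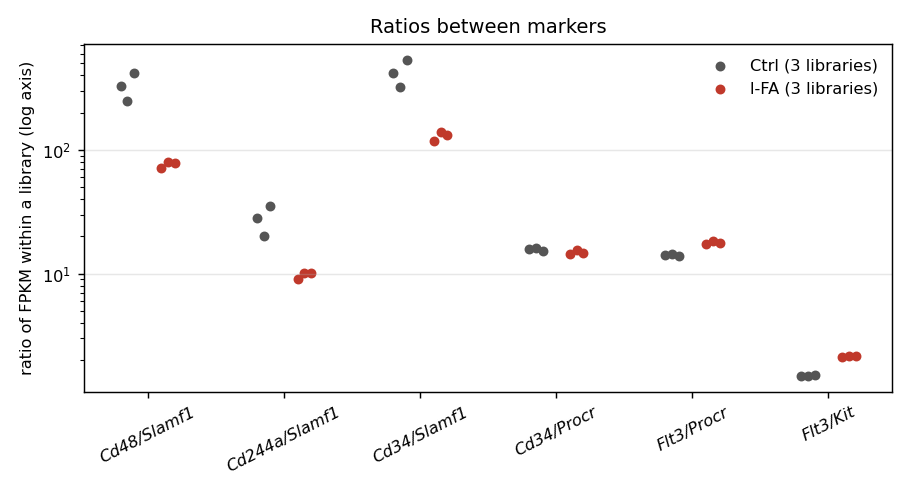
Ratio of FPKM between pairs of markers within a library (log y axis), for 3 Ctrl (grey) and 3 l-FA (red) libraries. The 3 pairs with Slamf1 below are lower in l-FA, Flt3/Procr and Flt3/Kit are higher, and Cd34/Procr overlaps between the groups.

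To place the sorted cells further, other genes of HSCs and of progenitors were read in the same libraries. Of 18 further surface antigens used to enrich HSCs, 7 rose and 3 fell, with a median log2 fold change of 0.04. Over all genes tested, 25.5% rose and 25.0% fell. Robo4 (1.05), the CD41 gene Itga2b (0.47) and Cd9 (0.45) rose, whereas Cd82 (-0.64), the CD49f gene Itga6 (-0.62) and Jam3 (-0.54) fell. Cd81 and Tie1 did not pass, with -0.07 and 0.05. Of 10 other HSC genes, 5 rose and 1 fell, with a median of 0.46. Mecom, a transcription factor gene required by HSCs, rose from 46.5 ± 3.54 to 67.2 ± 2.15 CPM (SD, n = 3, log2 fold change 0.53), and Sult1a1 (0.56), Mmrn1 (0.49), Mllt3 (0.48) and Pdzk1ip1 (0.43) rose with similar values. Hlf, a transcription factor gene of HSCs, fell (-0.31), and Gprasp2 and Ctnnal1 did not pass, with 1.29 and 0.11.

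Genes of lymphoid-primed MPPs were read next. Of 6 listed and 5 tested, 4 rose and 1 fell, with a median log2 fold change of 0.48. Dntt, the terminal transferase of early lymphoid cells, rose from 137 ± 0.480 to 202 ± 2.11 FPKM (SD, n = 3; log2 fold change 0.48), and ranked from 279 to 297 and from 157 to 165 among all listed genes. Lsp1 (0.53), Satb1 (0.40) and the chemokine receptor gene Ccr9 (1.03) rose with it, Notch1 fell (-0.16), and Rag1 had at most 6 counts in any library. The call of Notch1 was lost in 8 of 13 alternatives. Of 15 surface antigens and receptors of progenitors, 7 rose and 5 fell, with a median of 0.07, and 4 rose without Ctrl 1 or without l-FA 3. Cd33 (1.26) and Ccr9 rose, and the Fc receptor genes Fcgr3 (-2.34) and Fcgr2b (-1.10), Ly6c2 (-2.26) and the transferrin receptor gene Tfrc (-1.07) fell. Csf2rb, with 2297 counts in Ctrl 3 and 991 to 1014 in the other Ctrl libraries, and Il7r did not pass, with 0.38 and 0.09, and without Ctrl 3 Csf2rb passed with 0.85.

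Genes of granulocyte-monocyte progenitors (GMPs) and neutrophils included the most abundant RNAs in Ctrl and were lower in l-FA. Mpo and Elane, which encode myeloperoxidase and neutrophil elastase, held the first and second place by FPKM in each Ctrl library, and places 13 to 14 and 41 to 44 in l-FA. Mpo fell from 3743 ± 83.8 to 1052 ± 32.0 FPKM (SD, n = 3, log2 fold change -1.91), and Elane fell by 2.82 on the log2 scale. All 9 genes tested of this list fell, among them Ltf (-3.16), Ms4a3 (-2.72), Ctsg (-1.68) and Prtn3 (-1.65), with a median of -1.68, and the tenth, Ly6g, had 3 to 8 counts in Ctrl and 0 in l-FA. The summed level of the list was 23101 to 24024 CPM in Ctrl and 5702 to 6014 CPM in l-FA. This difference moved with the differences of the sorting markers, and its part in them was not tested.

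**Figure D5:**
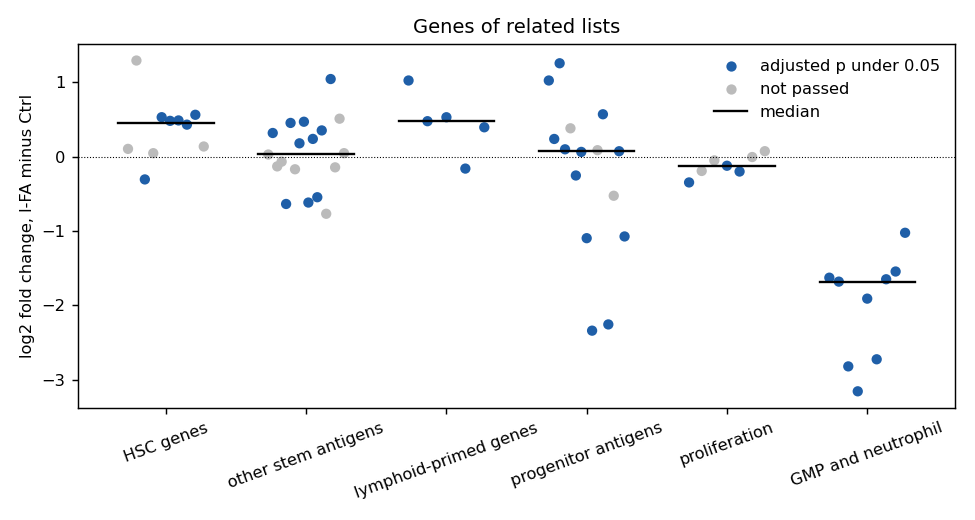
Log2 fold change, l-FA minus Ctrl (y axis), of the tested genes of 6 lists, with 1 point per gene, blue for an adjusted p under 0.05 and grey otherwise, and a line at each median. HSC genes and lymphoid-primed genes have medians of 0.46 and 0.48, further stem cell antigens and progenitor antigens scatter around 0, and all GMP and neutrophil genes lie below 0.

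Markers of other blood cells were read in the same way. Of 6 megakaryocyte genes, 3 rose, namely Gp9 (1.41), Itga2b and Vwf (0.44), and none fell, with a median of 0.39. Of 5 tested mast cell and basophil genes, 4 rose and none fell (median 0.51), namely Prss34 (0.55), Cpa3 (0.51), Mcpt8 (0.38) and, singled out after its values were seen, Gzmb (2.53). Of 7 erythroid genes, 2 rose, Epor (0.76) and Gata1 (0.50), and 1 fell (median 0.03). The only T-cell gene tested, Lck, rose (0.43). Of those with too few counts to test, Cd3d had 9, 7 and 4 counts in Ctrl and 2, 0 and 0 in l-FA. Cd3e went the other way, with 0, 0 and 4 counts in Ctrl and 6, 3 and 10 in l-FA. Of 3 tested stromal genes Pdgfrb rose, and Col1a1 (-0.29) and Col1a2 (0.50) did not pass. Cxcl12, not tested, had 20, 24 and 10 counts in Ctrl and 5, 3 and 3 in l-FA. Of 7 proliferation genes, 3 fell, Ccna2 (-0.35), Mki67 (-0.20) and Mcm2 (-0.12), and none rose, with a median of -0.12. Top2a and Pcna did not pass. Top2a was called higher with DESeq2, with upper-quartile scaling, with total counts alone and without Ctrl 1. The median was -0.04 without Ctrl 1 and -0.08 without l-FA 2.

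Of the markers, Cd34, Flt3, Cd48 and Kit had the highest RNA levels per gene length in both groups and Slamf1 and Fgd5 the lowest, with Ly6a, Esam, Cd244a and Procr between them. No library of a sorted MPP subset was analysed here, so a share of HSCs or of any MPP subset could not be read from these values, and the cells are called by their sort label throughout.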

How the data were processed

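RNA of sorted HSCs was measured by sequencing amplified cDNA of 3 Ctrl and 3 l-FA libraries, grouped by their labels. The files deposited by the authors give raw counts (whole numbers, not normalized) and FPKM values, which scale those counts by gene length and library total. The submitters' processing notes name HISAT2, SAMtools 1.3.1, StringTie, edgeR and GRCm39, with no role given, and the paper's methods name DESeq2. Coordinates are those of the deposited table. The main test was edgeR's quasi-likelihood test (edgeR 4.0.16, R 4.3.3) after TMM scaling and filterByExpr, with Benjamini-Hochberg adjustment over 16520 genes, and an SE was obtained as the absolute log2 fold change over √F. The code was tested on simulated data. CPM values are TMM-normalized, and FPKM values, used for levels between genes, carry no TMM factors. Ratios were tested on log2 counts plus 0.5, and exact permutation tests ran over libraries. The members and the 21 gene lists were chosen with earlier results of these data known. The text names all members and lineage antigens. In each other list it names up to 6 changed genes with the largest change and a mean of at least 1 CPM. Up to 2 genes of the highest level that did not pass are named as well. Rag1, Cdh5, Kitl, Ly6g, F3, Gzmb, Cd3d, Cxcl12, Slamf7 and the values of places by FPKM were added after their values were seen. A lineage antigen of that rule and the B-cell list are not reported here. Reads without molecular identifiers are not independent molecules, so counting error covers part of the error only. Alternatives were RLE scaling, upper-quartile scaling, DESeq2 1.42.0, 2 low-count filters, a replicate block, leaving out each library, a pseudocount of 1 or FPKM for ratios, and, added after seeing the data, total counts without scaling factors and transcript lengths. Ctrl and l-FA libraries carry the same replicate numbers, which the labels do not call pairs, and the data gave no sign of pairing.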

Additional observations from a re-analysis of the deposited data

How the results depend on the processing

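The number of markers called, 9 higher and 1 lower, was the same under all 13 alternatives to the test, and the log2 fold change of each marker kept its direction and its side of the threshold. The number of genes past the adjusted p and over 2-fold was 1946, and it moved to 3335 with no low-count filter and to 930 with at least 10 counts in every library. Without 1 library it was 2035 to 2086. The ratios kept their direction under each alternative run, and no ratio could pass the threshold. Same-numbered libraries of the groups had correlations of deviations of 0.0187, -0.0132 and -0.0500. These gave no sign of pairing, but with few libraries per group they cannot exclude it. With the replicate number as a block, 7405 genes passed, 1852 of them over 2-fold, and all 10 markers kept their call. Rises among progenitor antigens then numbered 4 and falls among GMP and neutrophil genes 8. Total counts as the only scaling moved Cd48 from -0.15 to -0.08 and Kit from 0.12 to 0.19. Among the other values, for lists, single genes and levels, 755 were within the limits set for them and 136 moved, and the medians of the sialomucin and T-cell lists changed sign under at least 1 alternative. Low counts were filtered anew in each fit, so the genes tested in a list could differ. The T-cell median was 0.43 from Lck alone and 0.39 to 0.45 with 1 library left out. It was -0.74 with no low-count filter, where T-cell genes of few counts entered. Leaving out 1 library gave medians of 0.02 to 0.08 for receptor tyrosine kinase genes, 0.02 to 0.07 for further stem cell antigens, 0.01 to 0.06 for erythroid genes and -0.02 to 0.08 for sialomucins. Depth limits Slamf1 most, with 32 to 51 counts in Ctrl.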
